A study of Caenorhabditis elegans with 6 samples.

Results

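The genes described are the fatty acid synthase and elongase genes of Caenorhabditis elegans: fasn-1, pod-2, let-767, elo-1, elo-2, elo-3, elo-5, elo-6, elo-8 and elo-9. They were taken by their symbols from a gene table of 47656 entries, all 10 were found, and all 10 were among the 16506 genes abundant enough to test. Their levels were measured by sequencing poly(A) RNA of whole wild-type worms from 6 libraries, 3 per group. The vehicle group was kept from the last larval stage for 11 days in complete S-Basal buffer with 200 µM FUDR, which blocks DNA synthesis and so prevents progeny, and 100 µg/mL ampicillin. The treated group received the same buffer with FUDR and ampicillin, plus ilimaquinone (IQ), a quinone natural product of marine sponges, at 100 µM. Both groups therefore carry FUDR and the antibiotic, and neither shows the genes in untreated worms. Because whole animals were pooled into each library, fewer cells of a type and less RNA per cell cannot be told apart.

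Fatty acids are built from acetyl-CoA. Acetyl-CoA carboxylase, encoded by pod-2, turns it into malonyl-CoA, and the multidomain fatty acid synthase, encoded by fasn-1, joins malonyl units into saturated chains such as palmitate. Longer chains are made in the endoplasmic reticulum by a repeating cycle in which an elongase of the ELO family condenses an acyl-CoA with malonyl-CoA, a ketoacyl reductase such as LET-767 reduces the product, and a dehydratase and an enoyl reductase complete the round. In worms ELO-1 and ELO-2 act on polyunsaturated and saturated chains, while ELO-5 and ELO-6 make monomethyl branched-chain fatty acids, which larvae need for growth and which are built into sphingolipids. The intestine and the epidermis are known as main sites of this synthesis.

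Total estimated counts ran from 32155192 to 39244786 per library, and 79445 to 100025 of them fell on the 10 genes. Defining markers of germline, sperm, yolk, intestine, hypodermis, muscle and neurons all had counts in every library. Vehicle replicate 1 stood apart from the others: its 24 oocyte and germline markers summed to 4339 CPM (counts per 1e6 counts of the scaled library), against 1146 and 1358 CPM in vehicle replicates 2 and 3 and 673 to 973 CPM with ilimaquinone. Fold changes of the 10 genes that moved by over 1.5 times without it are given both ways.

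Transcripts of the pathway were abundant in these old, sterile adults, apart from elo-8 and elo-9. On the length-corrected scale of TPM (transcripts per 1e6 transcripts), the scale on which genes can be compared with each other, elo-1 had the highest mean level over the 6 libraries, 274 ± 55.1 TPM (SD, n = 6), at the 97.2 percentile of tested genes. It was followed by pod-2 at 201 TPM (177 to 221), let-767 at 169 TPM (148 to 184) and elo-6 at 167 ± 37.8 TPM. The ranges of these leading genes overlapped from one to the next, and elo-1 exceeded pod-2 in 5 of the 6 libraries.

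Below them fasn-1 stood at 101 ± 8.17 TPM, lower than elo-6 in every library. The level of elo-3 was 79.4 ± 11.3 TPM and that of elo-5 was 78.6 ± 19.6 TPM, with elo-3 the higher of the pair in 4 libraries. The level of elo-2 was 63.8 ± 4.29 TPM, below elo-5 in 5 libraries. A wide gap separated these 8 genes from the last ones, elo-9 at 5.69 ± 0.696 TPM and elo-8 at 1.92 TPM (0.322 to 6.29). The level of elo-9 exceeded that of elo-8 in 5 libraries, all but vehicle replicate 1. Within the branched-chain pair elo-6 was 1.85 to 2.25 times as high as elo-5 with vehicle and 1.97 to 2.48 times with ilimaquinone, so the groups overlapped.

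**Figure D1:**
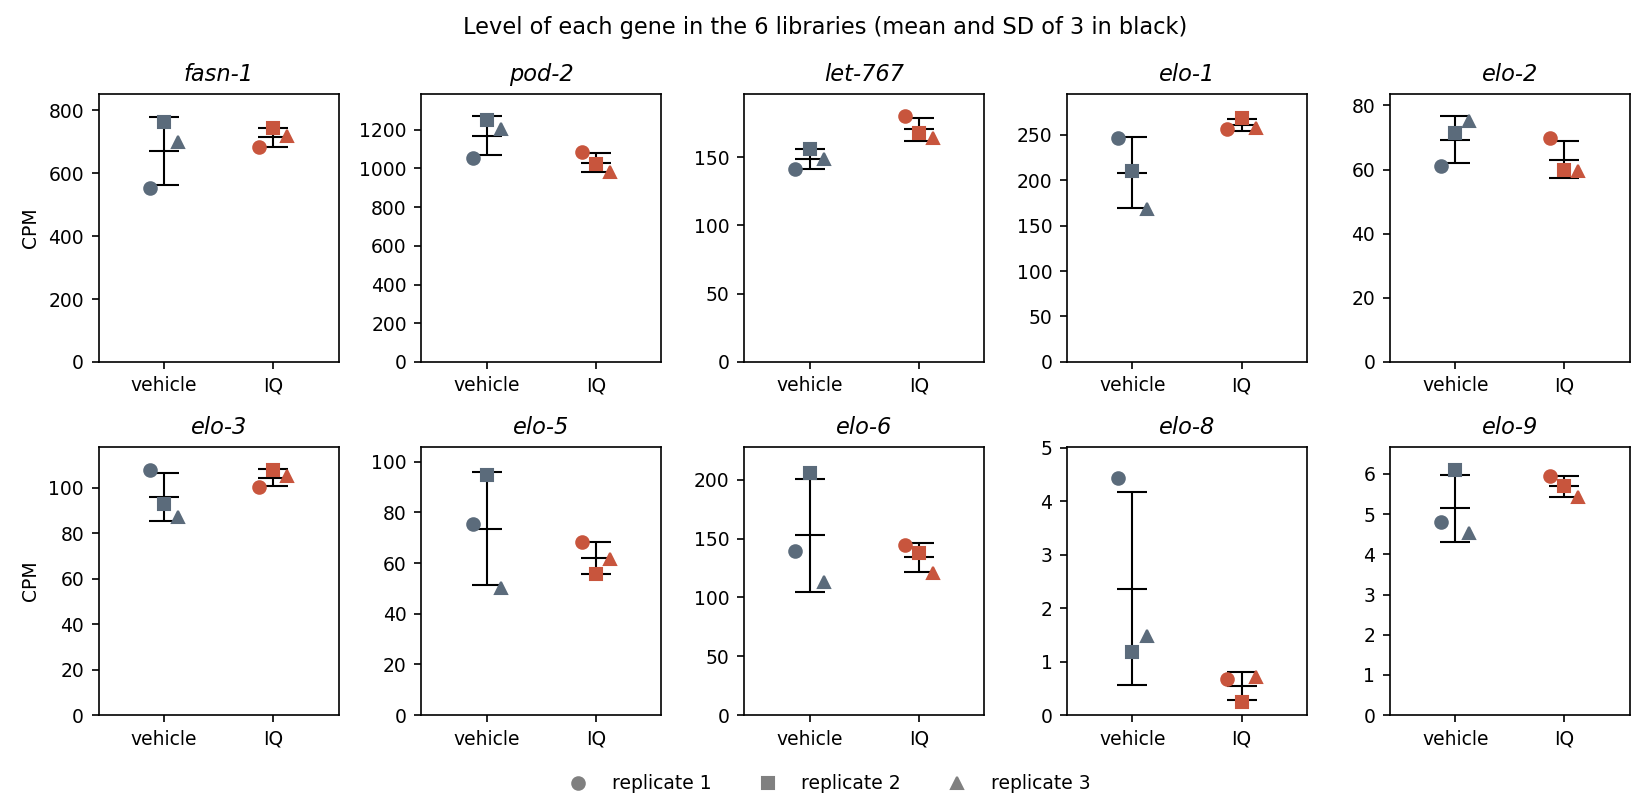
CPM of each gene (vertical axes, each from 0) in the vehicle and ilimaquinone (IQ) libraries, with replicate numbers as symbols and the mean ± SD of 3 libraries in black. The 3 ilimaquinone libraries lie close together for most genes, elo-5 and elo-6 spread widely among the vehicle libraries, and elo-8 is highest in vehicle replicate 1.

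Between ilimaquinone and vehicle, none of the 10 genes passed the test across all genes. By the quasi-likelihood test of edgeR, adjusted after Benjamini and Hochberg, 0 of 10 were higher and 0 of 10 lower at an adjusted p under 0.05. Of all tested genes 1.47% passed, 1.14% higher and 0.327% lower. At an unadjusted p under 0.05 only elo-8 was lower and none was higher, against 11.8% lower, 10.1% higher and 21.9% in either direction of all tested genes. Without vehicle replicate 1 edgeR again called 0 of the 10, where it called 4.31% of all genes. At an unadjusted p under 0.05 there were then 4 members, elo-1 and elo-3 higher and pod-2 and elo-8 lower, against 22.7% of all genes, 11.4% higher and 11.3% lower. DESeq2's Wald test called elo-8 lower, with 5.75% of all genes called lower by that test, and it called no other member. Fold changes were split evenly, 5 above and 5 below 0, where 48% of all tested genes were above, and their median was -0.02 on the log2 scale, as was the median over all tested genes. The members' median depended on single libraries: it was -0.13 without vehicle replicate 1 and 0.077 without vehicle replicate 2, where the medians over all tested genes were -0.013 and -0.026.

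The changes of most members were bounded closely. For 9 of the 10 genes, all but elo-8, the 95% interval of the fold change lay within a 2-fold change in either direction, as it did for 57.3% of all tested genes. For fasn-1, pod-2, let-767, elo-2 and elo-3 it lay within 1.5-fold, against 30.1% of all tested genes. A missed threshold does not show that levels were equal.

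**Figure D2:**
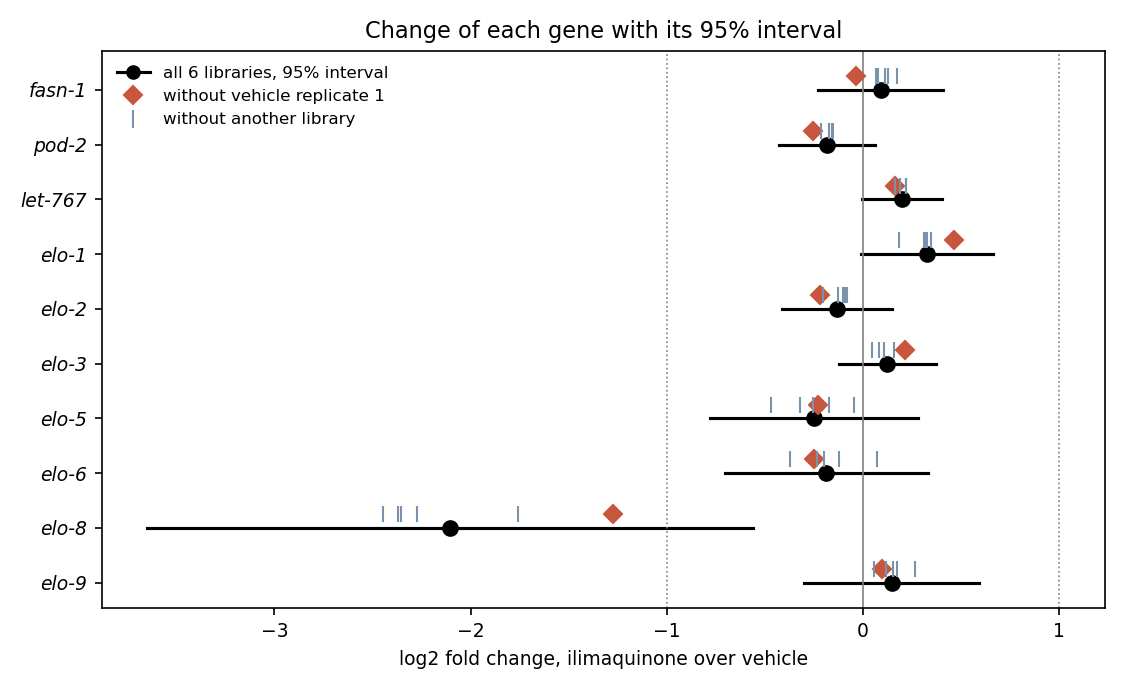
Log2 fold change of each gene, ilimaquinone over vehicle, with a 95% interval built from the edgeR fit (black). The same value with 1 library left out is a diamond (without vehicle replicate 1) or a tick (without another library). Dotted lines mark a 2-fold change. The intervals of 9 genes lie between those lines, and that of elo-8 runs from -3.65 to -0.56.

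With all 6 libraries the fold changes of the carboxylase and synthase genes had opposite signs, and neither gene passed the test. The sign of the synthase gene turned without vehicle replicate 1. The carboxylase gene pod-2 (gene 173500, chromosome II, 1135534 to 1152705, build WBcel235, plus strand) had 1056, 1248 and 1204 CPM in vehicle replicates 1, 2 and 3 and 1083, 1023 and 982 CPM with ilimaquinone. The groups overlapped on this scale, because vehicle replicate 1 lay below ilimaquinone replicate 1. Its log2 fold change was -0.18 ± 0.10 (SE, adjusted p = 0.333, edgeR), a fold of 0.881 with a 95% interval of 0.742 to 1.04. In CPM the groups did not overlap for 3 members (let-767 and elo-1 higher, elo-8 lower), against 30.8% of all tested genes, and in TPM for pod-2 and elo-8, both lower, and for 0 members higher, where 17.3% of all genes were higher. The TPM of pod-2 was 204 to 221 with vehicle and 177 to 198 with ilimaquinone, and 12.4% of all tested genes were apart in that direction. Limma on log2(TPM + 1) gave an adjusted p of 0.284.

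The synthase gene fasn-1 (gene 172715, chromosome I, 8975366 to 8986540, minus strand) had 552, 762 and 700 CPM with vehicle and 683, 743 and 718 CPM with ilimaquinone. All 3 ilimaquinone values lay inside the vehicle range, whose lower end was set by vehicle replicate 1. Its log2 fold change was 0.09 ± 0.13 (adjusted p = 0.707, edgeR), and without vehicle replicate 1 it was -0.036. The ratio of fasn-1 to pod-2, which needs no scaling between libraries, was 0.523, 0.610 and 0.582 in CPM with vehicle and 0.630, 0.726 and 0.731 with ilimaquinone. The groups did not overlap, and with 3 libraries against 3 a two-sided exact permutation test cannot give a p below 0.1. Such ratios did not overlap between groups in 18 of the 45 pairs of members, 8 of them pairs with elo-8, so this pair is 1 of several. The share over pairs of all tested genes was not computed, so whether 18 is many or few is not known.

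Both pod-2 and fasn-1 span long loci, and the reads of pod-2 were divided over 3 deposited transcripts. The transcript NM_001267098 (1136801 to 1152375) equals in start, end and length an Ensembl form whose coding sequence begins 7135 bases upstream and holds 111 codons more than the form W09B6.1a. It took 45.1, 48.8 and 54.2% of the pod-2 count with vehicle and 36.7, 41.1 and 27.7% with ilimaquinone. Every ilimaquinone share lay below every vehicle share. For how many other genes the transcript shares lie apart in this way was not computed.

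At the level of this transcript the values were 480, 609 and 651 CPM with vehicle and 398, 421 and 272 CPM with ilimaquinone. The groups did not overlap, as in the lower direction for 12.3% of all tested transcripts (13% in the higher direction). Its log2 fold change was -0.67 ± 0.20 in the edgeR fit over 22238 transcripts (unadjusted p = 0.016, adjusted p = 0.245), so it did not pass. The other long transcript, NM_001381323, had 583, 638 and 550 CPM against 679, 601 and 710 CPM, with overlapping groups and a fold change of 0.17 ± 0.10 (adjusted p = 0.459, edgeR). The short transcript NM_001027230 held at most 0.641% of the count. Most bases are common to the long forms, so the division between them is an estimate that rests on the few parts that differ. Of the 16 deposited transcripts of the 10 genes 15 were tested. None was called, against 0.292% of all tested transcripts, 0.234% higher and 0.0585% lower. At an unadjusted p under 0.05 this transcript of pod-2 and the main one of elo-8 were lower and 0 were higher, against 8.14% lower and 7.51% higher of all transcripts.

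**Figure D3:**
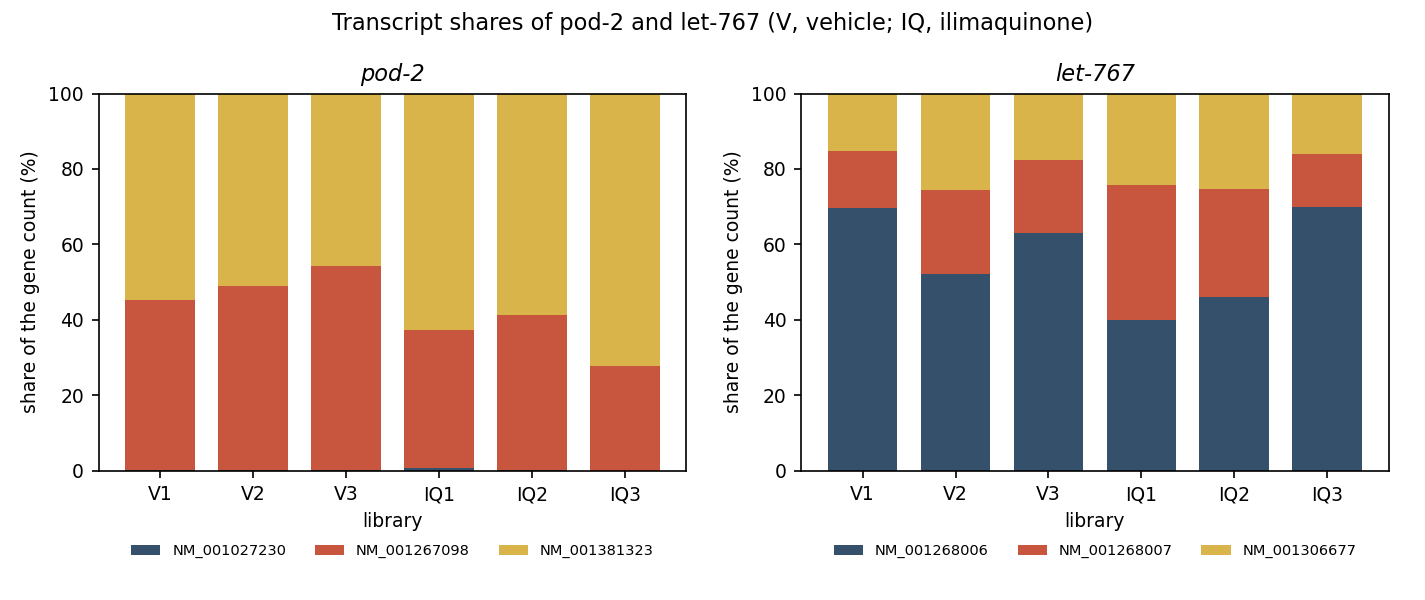
Share of the gene count (%, vertical axis) assigned to each deposited transcript of pod-2 and let-767 in the 3 vehicle (V) and 3 ilimaquinone (IQ) libraries. The share of the pod-2 transcript NM_001267098 is 45.1 to 54.2% with vehicle and 27.7 to 41.1% with ilimaquinone, while the shares of the let-767 transcripts overlap.

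The ketoacyl reductase gene let-767 (gene 175895, chromosome III, 6338508 to 6341931, minus strand) had 141, 156 and 148 CPM with vehicle and 180, 167 and 164 CPM with ilimaquinone. The groups did not overlap, as in the higher direction for 15.8% of all tested genes, and the log2 fold change was 0.20 ± 0.09 (adjusted p = 0.232, edgeR). In TPM they overlapped. One deposited transcript of let-767, NM_001268007, spans let-767 itself and runs on over 1819 bases of the neighbouring gene rpn-13. That gene encodes a proteasome ubiquitin receptor and lies on the same strand. The transcript took 14.1 to 35.8% of the let-767 count.

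Counted without that transcript, let-767 stood at 120, 121 and 120 CPM with vehicle and at 116 to 141 CPM with ilimaquinone. The groups then overlapped, and the log2 fold change was 0.06 ± 0.10 (adjusted p = 0.739, edgeR). Leaving this transcript out may also have removed let-767 reads, most in ilimaquinone replicate 1, where its share of the count was largest. How its reads divide between let-767 and rpn-13 was not tested. The gene rpn-13 itself had a log2 fold change of -0.01 ± 0.14 (adjusted p = 0.979, edgeR). The ratio of pod-2 to let-767 depended on the same transcript: it was 7.48 to 8.11 with vehicle and 5.98 to 6.11 with ilimaquinone for the whole gene, and 8.80 to 10.3 against 6.97 to 9.37 without the transcript, where the groups overlapped. Other tested genes overlap pod-2, elo-3 and elo-5, namely W09B6.4, gstk-2 and F41H10.3, all on the opposite strand and none called. Whether counting used strand is not stated, so reads of those stretches are uncertain.

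Among the elongases of unbranched chains, elo-1 had the largest positive fold change of the 10 genes. This gene (gene 177787, chromosome IV, 9526366 to 9528350, plus strand), whose product elongates polyunsaturated fatty acids, had 246, 210 and 168 CPM with vehicle and 257, 269 and 258 CPM with ilimaquinone. The ilimaquinone libraries lay above all vehicle libraries in CPM, vehicle replicate 1 by a small margin, but not in TPM, where vehicle replicate 1 had 315 TPM and the ilimaquinone libraries 295 to 320 TPM. The log2 fold change was 0.33 ± 0.14 (adjusted p = 0.237, edgeR), a fold of 1.25 with a 95% interval of 0.992 to 1.59. It was 0.46 without vehicle replicate 1 (adjusted p = 0.0600) and 0.18 without vehicle replicate 3.

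The palmitate elongase gene elo-2 (chromosome IV, 17466062 to 17468458, minus strand) ranged from 61.0 to 75.2 CPM with vehicle and from 59.6 to 69.8 CPM with ilimaquinone, and its log2 fold change was -0.13 ± 0.12 (adjusted p = 0.516, edgeR), or -0.22 without vehicle replicate 1. It was -0.079 when vehicle replicate 3 was left out and -0.21 when ilimaquinone replicate 1 was. Its pattern over the 6 libraries was the closest to that of pod-2 among the members, with a root mean square difference of 0.061 in centred log2 CPM against a median of 0.279 over the 45 pairs. The gene elo-3 (chromosome IV, 7237718 to 7240488, plus strand) ranged from 87.1 to 108 CPM with vehicle and from 100.2 to 108 CPM with ilimaquinone. Its log2 fold change was 0.12 ± 0.10 (adjusted p = 0.495, edgeR). Without vehicle replicate 1 it was 0.21 (unadjusted p = 0.0204, adjusted p = 0.143, edgeR), without vehicle replicate 2 0.081 and without vehicle replicate 3 0.048. The ratio of elo-1 to elo-3 was 1.93 to 2.29 with vehicle and 2.45 to 2.56 with ilimaquinone, without overlap. How often ratios of other tested genes lie apart was not computed.

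The branched-chain elongase genes elo-5 and elo-6 lie on chromosome IV at 5374598 to 5379757 and 5386625 to 5388829, both on the minus strand, with 6867 bases between them. The first, elo-5, had 75.6, 94.7 and 50.3 CPM with vehicle and 68.3, 55.7 and 61.6 CPM with ilimaquinone. The second, elo-6, had 139, 206 and 113 CPM with vehicle and 144, 138 and 121 CPM with ilimaquinone. Both were highest in vehicle replicate 2 and lowest in vehicle replicate 3, so the vehicle libraries enclosed the ilimaquinone libraries for either gene. Their log2 fold changes were -0.25 ± 0.22 for elo-5 and -0.19 ± 0.22 for elo-6 (adjusted p = 0.523 and 0.629, edgeR). Without vehicle replicate 2 these were -0.044 and 0.073, and without vehicle replicate 3 they were -0.47 and -0.37. At -0.47 the unadjusted p of elo-5 was 0.0168 (adjusted p = 0.172, edgeR).

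In CPM the coefficient of variation was larger among vehicle than among ilimaquinone libraries for all 10 genes, as it was for 81.5% of all tested genes. In TPM this held for 8 of the 10, and not for elo-2 (0.927 against 8.42%) and pod-2 (4.04 against 5.67%). In CPM it was 30.3% for elo-5 and 31.5% for elo-6 with vehicle, against 10.1 and 9.07% with ilimaquinone. For elo-1 it was 18.8 against 2.52% and for fasn-1 16.1 against 4.27%. For let-767 it was 5.03 against 4.94%, but counted without the transcript that spans rpn-13 the gene had an SD of 0.836 CPM with vehicle and 13.7 CPM with ilimaquinone. The median in CPM over the 10 genes was 16.1% with vehicle and 4.92% with ilimaquinone, beside 22.2 and 9.91% over all tested genes.

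The elongase family member elo-8 differed most between the groups and was the least abundant. It lies on chromosome III (gene 259739, 11230377 to 11232164, minus strand) and had 155, 40 and 46 counts with vehicle and 26, 8 and 26 with ilimaquinone, which are 4.44, 1.18 and 1.48 CPM and 0.674, 0.247 and 0.713 CPM. Every ilimaquinone value lay below every vehicle value, as in the lower direction for 15% of all tested genes. The log2 fold change was -2.10 ± 0.65 (edgeR unadjusted p = 0.0147, adjusted p = 0.158), a level 4.30-fold lower whose 95% interval on the log2 scale runs from -3.65 to -0.56. DESeq2 gave an adjusted p of 0.0283. Without vehicle replicate 1 the log2 fold change was -1.27 ± 0.47 (adjusted p = 0.186, edgeR).

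The level of elo-8 had the same order over the 6 libraries as the summed oocyte and germline markers, which were 4339, 1146 and 1358 CPM with vehicle and 856, 673 and 973 CPM with ilimaquinone. Those 24 markers had 0 positive fold changes and a median of -1.56, or -0.57 without vehicle replicate 1. In either case edgeR called 0 of them. DESeq2, on all 6 libraries, called 17 lower, against 5.75% of all tested genes. Sperm markers summed to 186, 38.5 and 79.3 CPM with vehicle and 17.7, 21.4 and 45.0 CPM with ilimaquinone, and yolk genes to 7049, 1651 and 2361 CPM against 1061, 668 and 1165 CPM. The yolk sums had the same order over the libraries as elo-8. That order rests in part on close elo-8 counts. These were 40 and 46 in vehicle replicates 2 and 3, and 26 in both ilimaquinone replicates 1 and 3. The part of the germline and yolk genes in the elo-8 result was not tested. Intestine markers, in contrast, ranged from 2954 to 3750 CPM with vehicle and from 2821 to 3093 CPM with ilimaquinone, with a median log2 fold change of -0.22. Hypodermis markers summed to 230 to 457 CPM against 448 to 700 CPM, so the groups overlapped. Their median log2 fold change was 0.62. Single markers ran from -2.10 to 1.48, 8 of 10 were above 0, and edgeR called 0.

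A further elongase gene, elo-7, which is not among the 10, was likewise highest in vehicle replicate 1 and lower with ilimaquinone. Within each group its libraries did not follow the order of elo-8. In CPM elo-7 had 2.49, 0.917 and 0.578 with vehicle and 0.233, 0.340 and 0.274 with ilimaquinone, without overlap. Its log2 fold change was -2.23 ± 0.62 (adjusted p = 0.134, edgeR), or -1.40 without vehicle replicate 1. DESeq2 called elo-7 lower, with an adjusted p of 0.0248. The remaining elongase gene, elo-4, had overlapping groups and a log2 fold change of 0.42 ± 0.45 (adjusted p = 0.597, edgeR). The last member, elo-9 (chromosome II, 14959513 to 14964108, minus strand), is also expressed at a low level, 4.53 to 6.09 CPM with vehicle and 5.43 to 5.96 CPM with ilimaquinone. Its ilimaquinone libraries lay inside the vehicle range, and the log2 fold change was 0.15 ± 0.19 (adjusted p = 0.659, edgeR), or 0.097 without vehicle replicate 1, 0.27 without vehicle replicate 2 and 0.054 without vehicle replicate 3.

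**Figure D4:**
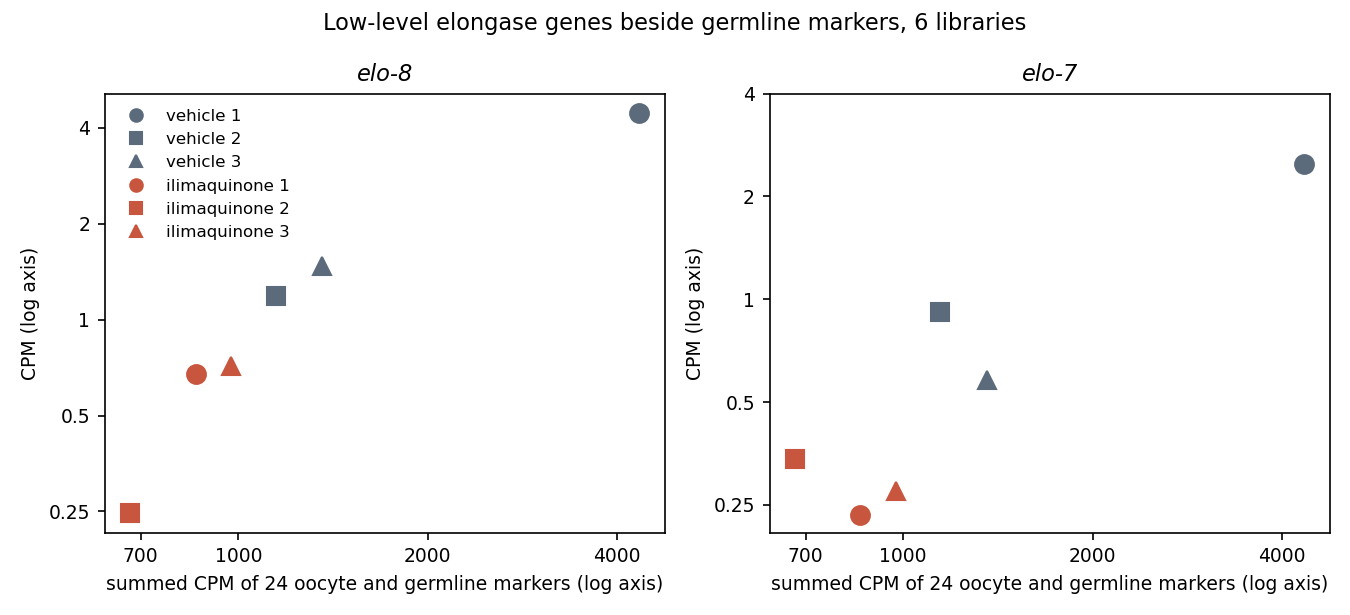
CPM of elo-8 (left) and of elo-7 (right) against the summed CPM of 24 oocyte and germline markers in the 6 libraries, on log axes, with replicate numbers as symbols. Vehicle replicate 1 lies at the upper right in both panels, with 4339 CPM of markers, and the ilimaquinone libraries lie at the lower left.

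The genes whose profile over the 6 libraries was nearest to that of fasn-1 were F59E11.2, the succinate dehydrogenase gene sdha-1, F32A5.8, F21C10.4 and clc-2, with root mean square differences of 0.034 to 0.036 in centred log2 CPM. They share with fasn-1 a low value in vehicle replicate 1. Nearest to elo-8 were the pseudogene Y102A5C.6, the lectin gene clec-222, F32D1.7, the innexin gene inx-3 and ZK892.3, at 0.047 to 0.075, which are likewise highest in vehicle replicate 1. With 16506 genes and 6 libraries such matches arise for many profiles, and these distances are a description only.

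Around the synthase and the elongases, 59 genes in 10 lists supply their substrates, complete the cycle, regulate them or use their products, and 57 were tested. One of them rose and none fell in edgeR, against 1.14 and 0.327% of all tested genes. The gene that rose was T25B9.9 (log2 fold change 0.55 ± 0.08, adjusted p = 0.0365, edgeR), for 6-phosphogluconate dehydrogenase, an enzyme of the pentose phosphate pathway that makes NADPH, the reductant of fatty acid synthesis. It had 135, 138 and 148 CPM with vehicle and 211, 197 and 211 CPM with ilimaquinone, without overlap. The call was lost, with an adjusted p of up to 0.221, when any library other than vehicle replicate 1 was left out. The 5 tested genes of NADPH supply had a median log2 fold change of 0.21, and edgeR called none of the other 4. One of these, Y57G11C.3, had a mean of 38.4 CPM in both groups.

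The malonyl-CoA decarboxylase gene mlcd-1, whose product breaks down the malonyl-CoA that POD-2 makes, just missed the threshold. It had 30.9, 39.5 and 33.8 CPM with vehicle and 55.6, 61.1 and 53.4 CPM with ilimaquinone, without overlap. The log2 fold change was 0.71 ± 0.12 (adjusted p = 0.0502, edgeR). Without vehicle replicate 1 the adjusted p was 0.0277, and with any other library left out it was 0.0541 to 0.252 (edgeR). Among the 6 genes of acetyl-CoA and malonyl-CoA supply and control edgeR called 0, and the median was 0.16. DESeq2 called 2 of them higher, against 5.34% of all tested genes. In edgeR 2 were higher at an unadjusted p under 0.05, against 10.1% of all tested genes. Of the partners in the elongation cycle the enoyl reductase gene art-1 had a log2 fold change of 0.27 ± 0.09 (adjusted p = 0.169, edgeR) and the dehydratase gene hpo-8 had 0.12 ± 0.09 (adjusted p = 0.470, edgeR). A relative of let-767, the steroid dehydrogenase family gene stdh-1, had 0.52 ± 0.15 (adjusted p = 0.146, edgeR, and 0.0420 in DESeq2).

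In the lists that use the products edgeR called no gene, while DESeq2 called 3 sphingolipid genes higher and 1 desaturase gene lower. Among the 7 desaturase genes, the stearoyl-CoA desaturase gene fat-7 had 2.35, 1.89 and 3.73 CPM with vehicle and 0.674, 0.773 and 0.548 CPM with ilimaquinone. Its log2 fold change was -1.99 ± 0.36 (adjusted p = 0.0538, edgeR, and 0.000171 in DESeq2), while the list median was -0.15. Without vehicle replicate 1 the adjusted p of fat-7 was 0.0377, and with any other library left out it was 0.0605 to 0.254 (edgeR). Of 10 sphingolipid genes 8 had a positive fold change, where 48% of all tested genes did. In edgeR 4 were higher at an unadjusted p under 0.05, where 10.1% of all tested genes were. The list was not tested as a set. In that list the ceramide glucosyltransferase gene cgt-1 had 12.2, 15.7 and 16.6 CPM against 26.0, 24.3 and 25.2 CPM. Its log2 fold change was 0.77 ± 0.15 (adjusted p = 0.0664, edgeR). Without vehicle replicate 1 the adjusted p of cgt-1 was 0.0235, and with any other library left out it was 0.0769 to 0.284 (edgeR). The list median was 0.23. Branched-chain primer genes, 6 in number, lay within -0.07 and 0.08 and had a median of 0.02; dld-1, with the smallest p, had 0.08 ± 0.08 (adjusted p = 0.598, edgeR). The 8 regulators, among them the SREBP gene sbp-1 (-0.04 ± 0.09), had a median of 0.03, and nhr-66, the one with the smallest p, had -0.24 ± 0.11 (adjusted p = 0.264, edgeR). For the 9 glycerolipid genes the median was -0.02, and cept-1 had -0.29 ± 0.14 (adjusted p = 0.260, edgeR). Across the 10 lists DESeq2 called 7 genes higher and 2 lower, against 5.34 and 5.75% of all tested genes. Without vehicle replicate 1 edgeR called 6 higher and 1 lower, against 2.68 and 1.63%.

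**Figure D5:**
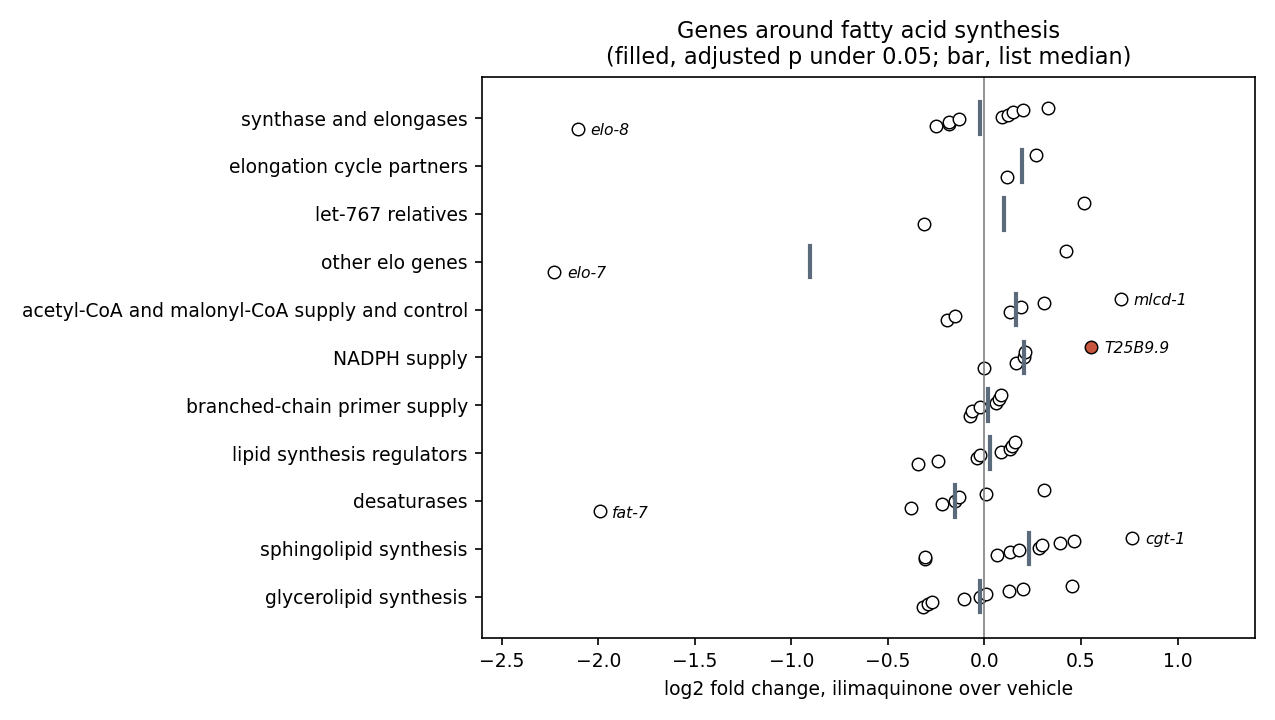
Log2 fold change, ilimaquinone over vehicle, of the synthase and elongase genes and of 57 genes in 10 lists around them, with the median of each list as a bar and genes at an edgeR adjusted p under 0.05 filled. T25B9.9 is the only filled point, and the fold changes of most genes lie between -0.4 and 0.5.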

How the data were processed

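The authors deposited estimated counts, FPKM and TPM per library in a gene table and a transcript table, per the file headers. The submitters' processing notes name bcl2fastq 2.20.0, HISAT2 2.1.0, SAMtools 1.9 and the build WBcel235. Which program counted, whether by strand, and on which annotation is not given in the sources used. The deposited estimated counts were whole numbers, and each member's gene count equalled the sum over its transcripts. The test planned for read counts was kept. The deposited FPKM values were not used. The deposited TPM values served for levels between genes and for alternative tests.

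Groups and replicate numbers came from the sample titles. The labels do not say that libraries came from separate cultures, so a p-value reflects the spread between these 6 libraries alone, which may be technical. Any pair of libraries differed by a chi-square of at least 29.7 per gene, so none was a duplicate. The main test was that of edgeR 4.0.16 under R 4.3.3 (filterByExpr, TMM, glmQLFit, glmQLFTest, no covariate), separately for 16506 genes and 22238 transcripts, with Benjamini-Hochberg adjustment over all of them and a threshold of 0.05. Library sizes in CPM carry the TMM factor. SE is the size of the log2 fold change over the root of F. The scripts were tested on simulated data, with changes set in 200 genes or 200 transcripts picked at random. The gene fit called 22% of 2-fold and 71% of 4-fold changes in the right direction. In the transcript fit these were 0% and 22%. DESeq2 1.42.0 and limma 3.58.1 served as alternatives. Members, lists, tests and the naming rule were chosen with earlier results of these data known. The rule named all members, the called genes of each list (at most 6) or the one with the smallest p, and the 5 genes nearest to fasn-1 and to the member with the smallest p. Other genes (hpo-8, elo-4, sbp-1, Y57G11C.3 and the genes overlapping members) were named after their values were seen. Loci are those of the deposited transcript table. Strands and coding spans come from the Ensembl annotation of the same build, whose ends differ from the deposited ones by up to 2640 bases.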

Additional observations from a re-analysis of the deposited data

How the results depend on the processing

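No member gene was called higher under any alternative run, and none was called lower except elo-8 in DESeq2's Wald test, which makes 1 lower gene. No member transcript was called under DESeq2, either other filter on low counts, the replicate block or with 1 library left out. The sign of a member turned in 2 cases, both with 1 library left out: fasn-1 ranged from -0.036 (without vehicle replicate 1) to 0.17, and elo-6 from -0.37 to 0.073 (without vehicle replicate 2). Neither was called in any fit, and the cause was not tested. Counting let-767 without the transcript that spans rpn-13, and that spans let-767 too, was chosen after seeing the data.

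Among the genes of the 10 lists the 1 higher and 0 lower calls became 7 and 2 in DESeq2. Higher calls were 2 with DESeq2 size factors in edgeR, 2 with library size alone, 0 without a filter on low counts, 2 with the stricter filter, 0 with the replicate block, and 3 with limma on log2(TPM + 1) as on log2(TPM + 0.1). Lower calls were 1 with the stricter filter and 1 with either limma fit. Leaving out 1 library gave 0 to 6 higher and 0 to 1 lower. The call of T25B9.9 was lost without vehicle replicate 2 or 3 and without any 1 of the ilimaquinone libraries (adjusted p from 0.0609 to 0.221), without a filter (0.0657) and with the replicate block (0.136).

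Whether the replicate numbers pair the samples is not stated in the labels. Deviations from the group means correlated at -0.13, 0.42 and -0.23 across genes for numbers 1, 2 and 3. With 3 libraries per group these values cannot settle it. With the replicate block 0 member genes were called, and edgeR called 21 higher and 1 lower of all genes, in place of 188 and 54. A missed call is therefore no sign of equal levels, and elo-8, with 8 to 155 counts per library, is the least precise member.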
